A study of Mus musculus with 6 samples.

Results

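The p53 set described here comprises 10 genes: Trp53, which encodes p53, its negative regulators Mdm2 and Mdm4, and the transcriptional targets Ccng1, Phlda3, Gdf15, Zmat3, Trp53inp1, Btg2 and Gtse1. They were taken by gene symbol from a table of 54331 genes, all 10 were found, and all 10 were among the 15382 genes tested, those whose level averaged 1 TPM or more across the 6 libraries. TPM is a gene's share of all transcripts, corrected for length and scaled so that a library sums to 1000000, and it is comparable between genes. Gdf15 met that limit only through the OSKA + 4OHT libraries.

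The libraries came from male embryonic fibroblasts (MEFs) of E13.5 embryos with an Oct4-EGFP transgene on a mixed C57BL/6, DBA/2 and ICR background. Every culture carried retroviral Oct4, Sox2 and Klf4 (OSK) and AKT-MER, a myristoylated AKT joined to a modified estrogen receptor that responds to 4-hydroxytamoxifen (4OHT), and RNA was taken at 10 dpi. The 3 OSKA + 4OHT wells received 4OHT and the 3 OSKA − 4OHT wells received vehicle, so AKT-MER was present in both groups and 4OHT alone, without AKT-MER, was not analysed here. The wells were plated from infected cells of 1 experiment, so p-values measure the spread between wells, and each library is RNA of a whole well that mixes reprogramming and non-reprogramming cells.

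The p53 protein is a transcription factor that is held low in unstressed cells by MDM2, an E3 ubiquitin ligase that marks it for degradation, and by MDM4, a relative of MDM2 that binds its activation domain. Mdm2 is itself a p53 target, which closes a feedback loop, and AKT is known to phosphorylate MDM2. Active p53 arrests the cell cycle or kills the cell, and the pathway is a known barrier to the reprogramming of fibroblasts. The libraries measure RNA only, and the p53 protein was not measured here.

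Promoter windows are shown for 3 members whose levels stood with different neighbours below: Ccng1 as the most abundant direct target, Btg2 beside the immediate early genes, and Gtse1 beside the genes of G2 and mitosis. RefSeq windows on GRCm38.p6, running from 250 bases before to 50 bases after an annotated start, were at hand for 8 of the 10 members, as 11 windows. The windows lie at chr11:40755237-40755536 on the minus strand for Ccng1, chr1:134079106-134079405 on the minus strand for Btg2 and chr15:85859457-85859756 on the plus strand for Gtse1. Capitals mark matches on either strand to the p53 half-site decamer, to the cyclic AMP response element TGACGTCA, to AP-1 (TGANTCA), to CCAAT or to the cell cycle element TTTGAA, with ATTGG as CCAAT on the other strand.
Ccng1: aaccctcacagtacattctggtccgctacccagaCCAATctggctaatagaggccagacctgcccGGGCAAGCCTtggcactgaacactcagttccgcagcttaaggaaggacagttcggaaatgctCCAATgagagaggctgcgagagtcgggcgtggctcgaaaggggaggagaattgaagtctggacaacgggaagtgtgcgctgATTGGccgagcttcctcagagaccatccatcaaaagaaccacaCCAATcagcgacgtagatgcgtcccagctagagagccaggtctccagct
Btg2: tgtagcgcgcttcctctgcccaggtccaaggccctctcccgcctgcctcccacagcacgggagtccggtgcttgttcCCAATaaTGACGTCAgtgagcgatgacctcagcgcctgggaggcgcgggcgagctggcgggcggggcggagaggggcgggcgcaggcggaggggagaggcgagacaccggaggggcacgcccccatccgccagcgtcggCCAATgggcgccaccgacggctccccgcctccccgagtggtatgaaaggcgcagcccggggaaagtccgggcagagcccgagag
Gtse1: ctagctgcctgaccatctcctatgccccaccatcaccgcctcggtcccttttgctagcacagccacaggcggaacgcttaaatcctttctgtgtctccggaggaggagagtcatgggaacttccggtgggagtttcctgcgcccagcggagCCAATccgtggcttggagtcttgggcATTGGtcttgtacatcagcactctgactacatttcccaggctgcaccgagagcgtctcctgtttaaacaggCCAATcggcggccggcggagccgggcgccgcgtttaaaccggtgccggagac
The Ccng1 window held 1 decamer, at bases 66 to 75 of the window, and 4 CCAAT boxes. The Btg2 window held the cyclic AMP response element at bases 85 to 92 and 2 CCAAT boxes. The Gtse1 window shown held 3 CCAAT boxes. A second Gtse1 window, at chr15:85859696-85859995 on the plus strand and not printed, held 1 decamer at bases 260 to 269 and 1 CCAAT box. Of the other windows not printed, those of Trp53 (bases 176 to 185) and Mdm2 (bases 65 to 74) each held 1 decamer. Of 32841 windows of the same length, 8.36% held a decamer, 1.79% the cyclic AMP response element, 7.81% AP-1, 37.4% a CCAAT box and 17.9% TTTGAA, and the pair of decamers that makes a full p53 site was in 0.0731% of them and in none of the members' 11 windows. The last result says only that this arrangement is not in these windows, since p53 sites often lie in introns or farther upstream.

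Of the 10 members, 9 did not pass the test. Gdf15 did, but it was among the tested genes only through the group where it is high, so nothing about the set is read from its call. Across all tested genes 3.52% were called higher and 1.97% were called lower in the OSKA + 4OHT group at an adjusted p under 0.05 (limma-trend on log2(TPM + 0.5), Benjamini-Hochberg adjustment over all tested genes). No member was called lower, and at an unadjusted p under 0.05 the same limma fit had, of the 9 members other than Gdf15, 2 higher (Gtse1 and Trp53inp1) and 3 lower (Phlda3, Ccng1 and Zmat3), beside 14.1% and 7.18% of all tested genes. Every OSKA + 4OHT library lay above every OSKA − 4OHT library for 2 of these 9 and below for 4, while the same held for 18.1% and 10.0% of all tested genes. The 9 did not share a direction: 3 had a positive and 6 a negative log2 fold change, with a median of −0.19 beside a median of 0.14 over all tested genes. With Gdf15 the median was −0.11. That median ran from −0.24 to 0.09 when 1 library was left out, and it was positive only without OSKA + 4OHT replicate 3.

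The all-gene median above 0 depends on the scaling of the libraries, because TPM values are shares of a total. With scaling by a trimmed mean of log ratios, by quantiles or by the median gene, it became 0.04, −0.0047 and −0.02, and the share of called genes that were higher went from 64.1% to 51.3%, 49.7% and 44.0%. No member changed its direction under these scalings, whereas with median centring Ccng1 (adjusted p = 0.044), Phlda3 (adjusted p = 0.042) and Zmat3 (adjusted p = 0.047) were also called lower.

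**Figure D1:**
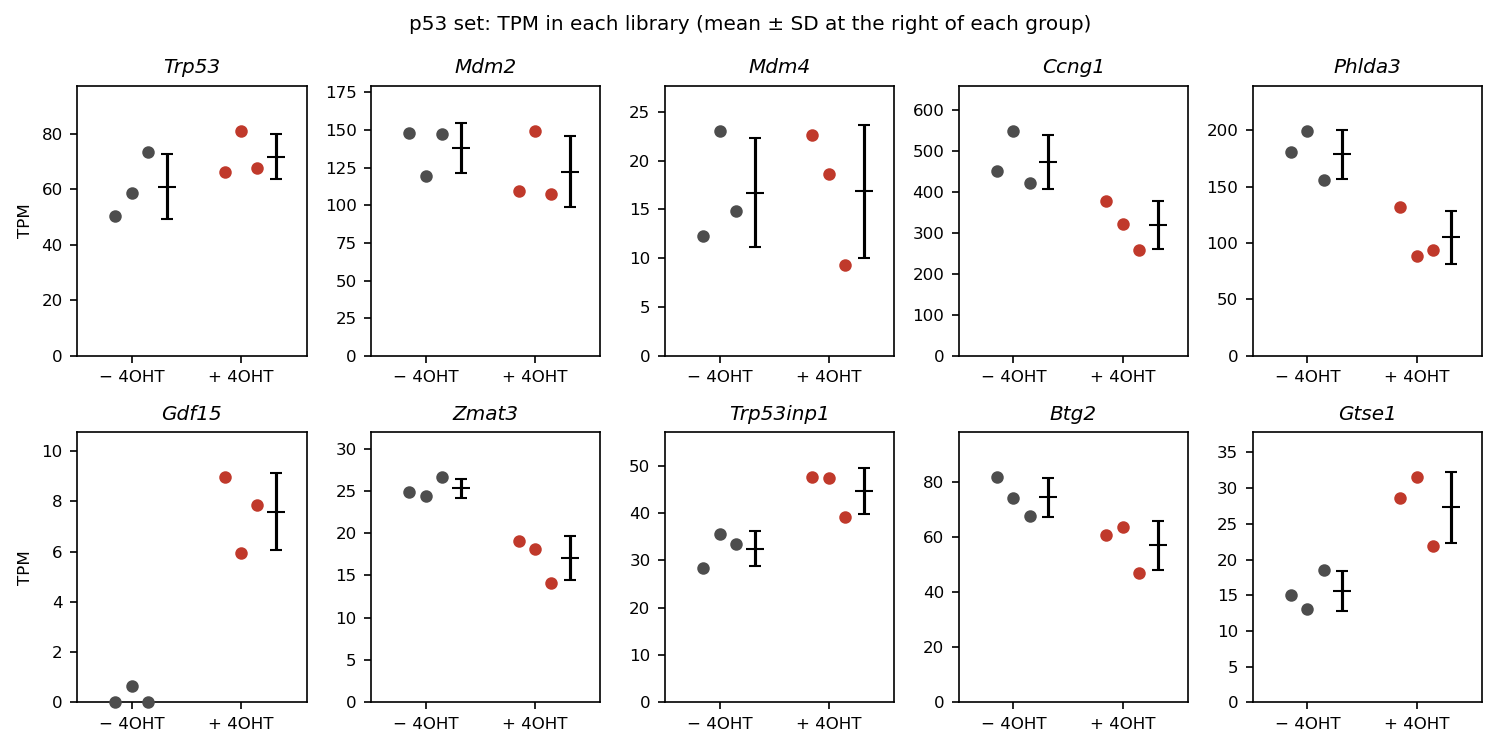
TPM of the 10 members (vertical axes, each from 0) in the 3 OSKA − 4OHT libraries (grey) and the 3 OSKA + 4OHT libraries (red), with the mean ± SD at the right of each group, left out for Gdf15 in the OSKA − 4OHT group where libraries are listed at 0. The groups do not overlap for Ccng1, Phlda3, Zmat3 and Btg2, which sit lower with 4OHT, or for Gdf15, Trp53inp1 and Gtse1, which sit higher.

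Trp53 (ENSMUSG00000059552, chr11:69580359-69591873, plus strand) was at 50.5, 58.8 and 73.6 TPM in the OSKA − 4OHT libraries and at 66.4, 81.0 and 67.8 TPM in the OSKA + 4OHT libraries. The highest library without 4OHT exceeded 2 of the 3 with 4OHT, so the groups overlapped. The log2 fold change was 0.24 (SE 0.19, 95% interval −0.20 to 0.69, adjusted p = 0.516), close to the shift of the median gene. Its pseudogene Trp53-ps, which shares a stretch of 353 bases at 97.7% identity, was listed at 0 TPM in all libraries.

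Mdm2 (ENSMUSG00000020184, chr10:117688875-117710758, minus strand) was at 148, 119 and 147 TPM without 4OHT and at 109, 149 and 108 TPM with 4OHT. The highest and the lowest value both came from OSKA + 4OHT libraries, and the difference was not larger than the spread between wells (log2 fold change −0.19, 95% interval −0.62 to 0.25, adjusted p = 0.594). Within each library the ratio of Mdm2 to Trp53 was 2.93, 2.03 and 2.00 without 4OHT and 1.64, 1.84 and 1.59 with 4OHT. Scaling a library by 1 factor leaves this ratio unchanged, whereas scaling by quantiles can alter it. The mean ratio was 2.32 ± 0.53 (SD, n = 3) against 1.69 ± 0.13 (SD, n = 3), and the 2 groups did not overlap. This ratio was chosen after the values were seen and is given as a description.

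Mdm4 (ENSMUSG00000054387, chr1:132959484-133030561, minus strand) varied widely within both groups, at 12.3, 23.0 and 14.8 TPM without 4OHT and 22.6, 18.6 and 9.28 TPM with 4OHT. Its log2 fold change was −0.03 with a 95% interval from −0.98 to 0.92 (adjusted p = 0.978), and its sign turned when OSKA − 4OHT replicate 2 (0.22) or OSKA + 4OHT replicate 3 (0.34) was left out. A processed pseudogene on the opposite strand, Gm29257, overlaps Mdm4 by 639 bases, and it was at 0.61 TPM in the mean without 4OHT and 1.47 TPM with 4OHT.

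Of the targets, Ccng1, Phlda3, Zmat3 and Btg2 were lower in every OSKA + 4OHT library than in any OSKA − 4OHT library, without a call. Ccng1 (ENSMUSG00000020326, chr11:40748552-40755311, minus strand), which encodes cyclin G1, a p53 target that acts on MDM2 through the phosphatase PP2A, was the most abundant member in both groups. Its level was 449, 548 and 422 TPM without 4OHT and 377, 321 and 259 TPM with 4OHT. All 3 values with 4OHT lay below the lowest without it, and the mean was 0.67 times as high (log2 fold change −0.58, SE 0.18, 95% interval −1.0 to −0.15, adjusted p = 0.126).

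Phlda3 (ENSMUSG00000041801, chr1:135766119-135769136, plus strand) encodes a pleckstrin homology domain protein that competes with AKT for membrane lipids and so restrains it. It was at 180.5, 199 and 156 TPM without 4OHT and 132, 88.7 and 94.2 TPM with 4OHT, with no overlap. The mean with 4OHT was 0.59 times that without, the lowest ratio of the set (log2 fold change −0.78, SE 0.19, 95% interval −1.24 to −0.31, adjusted p = 0.073). Relative to the median of all genes the difference was −0.92.

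Zmat3 (ENSMUSG00000027663, chr3:32334792-32366014, minus strand), which encodes an RNA-binding zinc finger protein, was at 24.9, 24.4 and 26.6 TPM without 4OHT and 19.0, 18.1 and 14.1 TPM with 4OHT. The OSKA − 4OHT wells agreed closely, at 25.3 ± 1.1 TPM (SD, n = 3), and the OSKA + 4OHT wells, at 17.1 ± 2.6 TPM (SD, n = 3), were all below them. The log2 fold change was −0.56 (SE 0.18, adjusted p = 0.142), so the mean was 0.68 times as high.

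Btg2 (ENSMUSG00000020423, chr1:134075170-134079120, minus strand) encodes an antiproliferative cofactor of mRNA deadenylation, and it is both a p53 target and a gene induced at once by growth factors. It was at 81.8, 74.3 and 67.6 TPM without 4OHT and 60.9, 63.6 and 46.9 TPM with 4OHT. The lowest value without 4OHT and the highest with it were close, and the log2 fold change of −0.39 had a 95% interval from −0.80 to 0.02 (adjusted p = 0.259).

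Gdf15 (ENSMUSG00000038508, chr8:70629393-70632456, minus strand), a secreted stress cytokine induced by p53 and by the integrated stress response, was at 8.95, 5.93 and 7.87 TPM in the OSKA + 4OHT libraries. In the OSKA − 4OHT libraries it was listed at 0, 0.66 and 0 TPM. All OSKA + 4OHT values were thus above all OSKA − 4OHT values, and the gene rose on the log2(TPM + 0.5) scale by 3.59 (SE 0.50, 95% interval 2.39 to 4.80, adjusted p = 0.015). A gene that enters the test only through its high group had to differ, so the call adds nothing to the listed values. A fold is not given, because the size rests on the pseudocount: it was 5.27 with 0.1, 2.84 with 1 and 2.11 with 2. The call was lost when any of the 3 OSKA + 4OHT libraries was left out, with adjusted p between 0.069 and 0.091.

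How low the Gdf15 values stand was read from other genes with 1 transcript of like length. In OSKA − 4OHT replicate 2 the value of 0.66 TPM was at or above 28.5% of the 477 such genes listed above 0, whereas in the 3 OSKA + 4OHT libraries Gdf15 was at or above 79.7%, 74.7% and 76.5% of them. An entry of 0 is not proof of absence in this table, since 97 of 5708 genes with a median above 20 TPM were listed at 0 in at least 1 library.

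Trp53inp1 (ENSMUSG00000028211, chr4:11156431-11174379, plus strand), which encodes a stress protein of p53 signalling and autophagy, was at 28.3, 35.6 and 33.4 TPM without 4OHT and 47.5, 47.4 and 39.1 TPM with 4OHT. Every OSKA + 4OHT library was higher, with a log2 fold change of 0.46 (SE 0.17, 95% interval 0.05 to 0.86, adjusted p = 0.187) and a mean 1.38 times as high. Less the median of all genes, 0.31 remained.

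Gtse1 (ENSMUSG00000022385, chr15:85859745-85876573, plus strand) encodes a microtubule-binding protein of G2 and mitosis that carries p53 out of the nucleus, and it differs from the other targets in being a gene of dividing cells. It was at 15.1, 13.03 and 18.5 TPM without 4OHT and 28.6, 31.5 and 21.8 TPM with 4OHT. The groups did not overlap, and the mean was 1.76 times as high with 4OHT (log2 fold change 0.79, SE 0.22, 95% interval 0.26 to 1.33, adjusted p = 0.102).

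The order of the levels was led in both groups by Ccng1, at 473 ± 66 TPM without and 319 ± 59 TPM with 4OHT (SD, n = 3). In the OSKA − 4OHT group Phlda3 (156 to 199 TPM) came next and Mdm2 (119 to 148 TPM) after it, and these ranges did not meet. In the OSKA + 4OHT group Mdm2 (108 to 149 TPM) came before Phlda3 (88.7 to 132 TPM), with overlapping ranges. Btg2 stood above Trp53 without 4OHT, with overlapping ranges (67.6 to 81.8 and 50.5 to 73.6 TPM), and below it with 4OHT, with separate ones (46.9 to 63.6 and 66.4 to 81.0 TPM). Trp53inp1 was at rank 6 in both groups, and with 4OHT its range (39.1 to 47.5 TPM) met that of Btg2. Gtse1 was at rank 9 without 4OHT, within the range of Mdm4, and at rank 7 with 4OHT, above every value of Zmat3. Gdf15 was last in both groups, at percentile 3.28 of the tested genes without and 36.5 with 4OHT.

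Among 38 further p53 targets of the same pathway, 37 were tested and 1, Tigar, was called, beside 3.52% of all tested genes called higher and 1.97% called lower. Tigar, a fructose-2,6-bisphosphatase-like enzyme that turns glucose toward the pentose phosphate pathway, was at 9.97, 11.6 and 8.33 TPM without 4OHT and rose to 28.1, 21.3 and 24.5 TPM with 4OHT (log2 fold change 1.27, SE 0.21, adjusted p = 0.025). The call was lost when any 1 of the 6 libraries was left out, with adjusted p between 0.057 and 0.097. Of the 37, 23 had a positive and 14 a negative log2 fold change, and their median of 0.16 was within 0.02 of the median of all tested genes. None was called lower, and by the same limma fit 5 of the 37 (13.5%) had an unadjusted p under 0.05, beside 21.3% of all tested genes. With 1 library left out, the median of these targets less that of all tested genes ran from −0.06 to 0.08.

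Cdkn1a, which encodes the cyclin-dependent kinase inhibitor p21 and is the best known p53 target, was at 235, 279.7 and 238 TPM without 4OHT and 279.8, 324 and 244 TPM with 4OHT. The groups overlapped and the log2 fold change was 0.17 (95% interval −0.19 to 0.52, adjusted p = 0.566), while the ratio of Ccng1 to Cdkn1a within a library was 1.91, 1.96 and 1.77 without 4OHT and 1.35, 0.99 and 1.06 with 4OHT. The ratios did not overlap between the groups, and this pair was chosen after its values were seen. Bax, which encodes a pore-forming protein of the cell death pathway, spread from 87.4 to 314 TPM without 4OHT and from 103 to 194 TPM with it, and no difference could be seen against that spread (log2 fold change −0.15, 95% interval −1.31 to 1.01, adjusted p = 0.889).

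By role, the 8 tested targets of cell cycle arrest had a median log2 fold change of 0.10, the 12 of cell death −0.14, the 4 of DNA repair and nucleotide supply 0.26, the 9 of metabolism and stress 0.58 and the 4 remaining targets (Rchy1, Cop1, Trp53cor1 and Susd6) 0.06. With 1 library left out, the cell death median ran from −0.32 to 0.11, positive only without OSKA + 4OHT replicate 3. The median of the 4 remaining targets ran from −0.07 to 0.24, and the other medians stayed positive in these fits. The median of all tested genes was 0.14, above that of the arrest group. With scaling by a trimmed mean, by quantiles or by the median gene, the arrest median turned to −0.0037, −0.04 and −0.06. That of the 4 remaining targets turned to −0.04, −0.19 and −0.11. No target of the cell death group was called, and 1 of its 12 had an unadjusted p under 0.05 by limma, beside that same 21.3%. In the metabolism and stress group, 8 of 9 had a positive log2 fold change, beside 59.3% of all tested genes, 4 of 9 had groups that did not overlap, all higher with 4OHT, beside 18.1% of all tested genes, and Tigar was the 1 called gene.

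**Figure D2:**
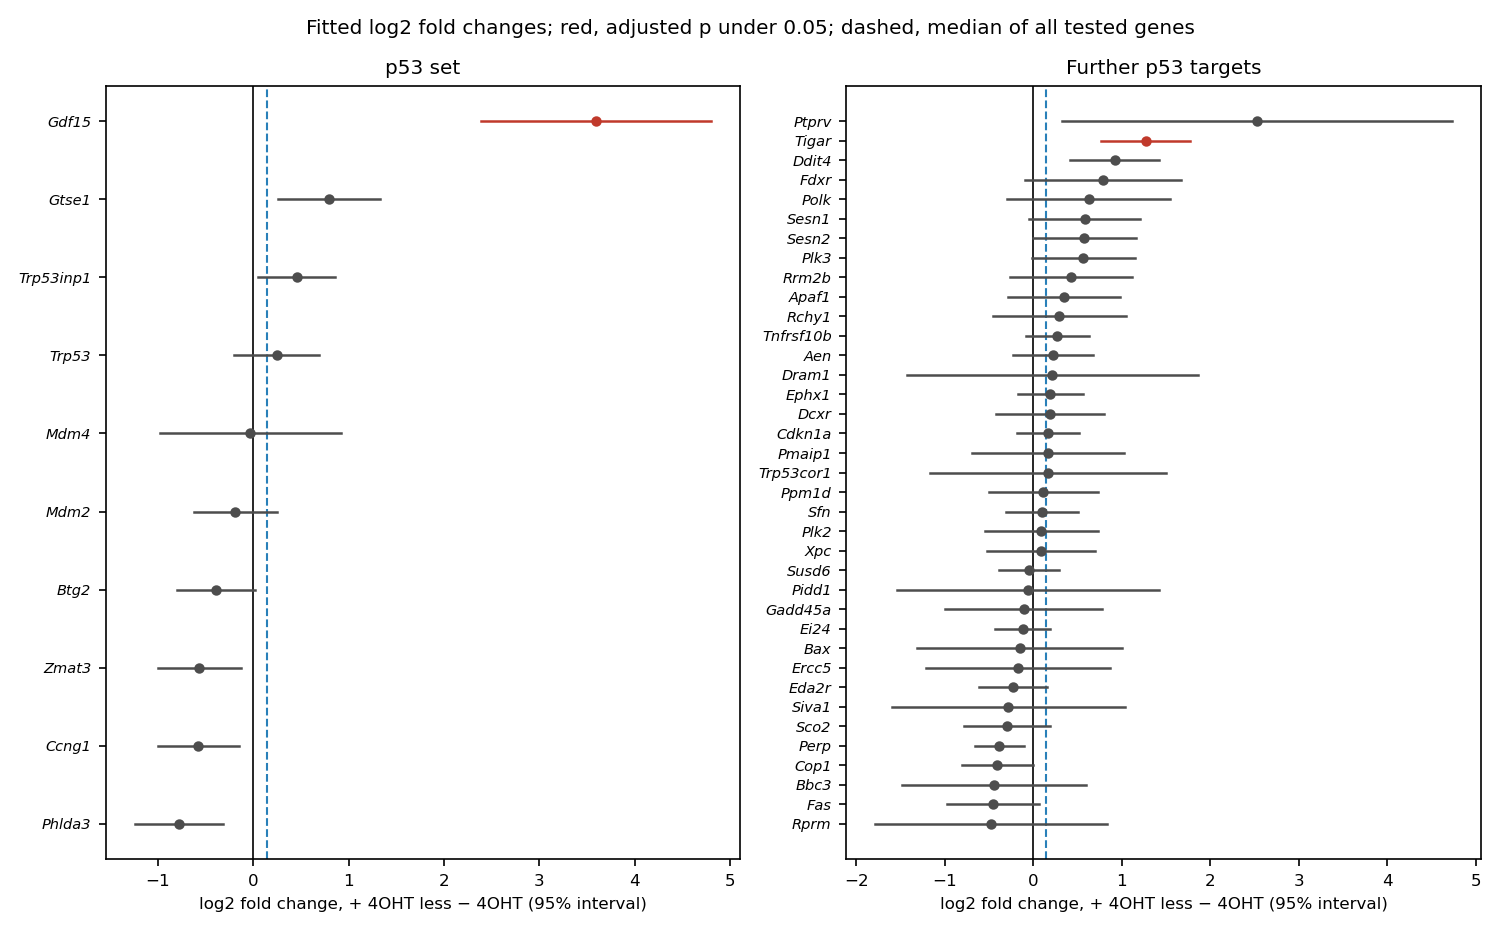
Fitted log2 fold change (horizontal axis, OSKA + 4OHT less OSKA − 4OHT, on the log2(TPM + 0.5) scale) with its 95% interval for the 10 members on the left and the 37 tested further p53 targets on the right, with called genes in red and the median of all tested genes as a dashed line at 0.14. Gdf15 at 3.59 and Tigar at 1.27 are the called genes, and the members without a call run from Phlda3 at −0.78 to Gtse1 at 0.79.

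Upstream of p53, 24 regulators were tested. They include the DNA damage kinases Atm, Atr, Chek1 and Chek2, the acetyltransferases Ep300, Crebbp and Kat5, and the deubiquitinase Usp7. None of the 24 was called in either direction, beside 3.52% of all tested genes called higher and 1.97% called lower. In the limma fit 2 of the 24 had an unadjusted p under 0.05, beside 21.3% of all tested genes. They went opposite ways: Ppp1r13l was lower with 4OHT (log2 fold change −1.17, adjusted p = 0.056) and Ube4b higher (log2 fold change 1.27, adjusted p = 0.112). Ppp1r13l, an inhibitor of p53, was called lower with median centring (adjusted p = 0.049) or when an average of 5 TPM was required (adjusted p = 0.0496). Ube4b was called in 0 of the 17 alternatives. The median log2 fold change of the regulators, 0.16, was near that of all tested genes. With 1 library left out, the difference between these medians ran from −0.03 to 0.18. Cdkn2a, the locus of ARF, which sequesters MDM2, was at 88.0, 103 and 71.0 TPM without 4OHT and 66.0, 95.8 and 68.0 TPM with 4OHT (log2 fold change −0.19, 95% interval −0.71 to 0.32, adjusted p = 0.646). The gene value sums ARF and p16 transcripts, which cannot be told apart here. The p53 relatives Trp63 and Trp73 were under the filter, with no library above 1.88 TPM.

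Of the 8 tested paralogs of members, 1 was called, beside 3.52% of all tested genes called higher and 1.97% called lower. This was Tob1, an antiproliferative relative of Btg2. It rose from 60.5, 55.3 and 55.5 TPM to 96.8, 104 and 111 TPM (log2 fold change 0.86, SE 0.13, adjusted p = 0.018), opposite in sign to Btg2, and the call held without OSKA − 4OHT replicate 1 and was lost when any of the other libraries was left out (adjusted p up to 0.081), with median centring (adjusted p = 0.052) or without the intensity trend (adjusted p = 0.0504). Phlda2 and Zmat4 were under the filter, and Trp53inp2, a relative of Trp53inp1, was lower in every OSKA + 4OHT library without a call (log2 fold change −0.48, adjusted p = 0.139), a gene named after its values were seen. Of all tested genes, 10.0% were lower in every OSKA + 4OHT library than in any OSKA − 4OHT library.

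Btg2 was read beside 14 immediate early genes, which growth factor signals switch on within minutes. Of these, 3 fell and none rose by the test, beside 1.97% and 3.52% of all tested genes. In 9 every OSKA + 4OHT library was lower and in 1, Klf2, every one was higher, beside 10.0% and 18.1%. Dusp1, a phosphatase of MAP kinases, fell from 179.6, 179 and 156 TPM to 83.5, 73.4 and 61.5 TPM (log2 fold change −1.24, adjusted p = 0.012). Zfp36, which destabilises mRNAs, fell by 1.09 on the log2 scale (adjusted p = 0.022), and Fosb, an AP-1 subunit, by 1.38 (adjusted p = 0.042). With 1 library left out at a time, between 0 and 3 genes of the list were called lower, Dusp1 in 4 of the 6 fits, Zfp36 in 1 and Fosb in 0. With scaling by a trimmed mean, by quantiles or by the median gene, 6, 5 and 7 were called lower. The median log2 fold change of the list was −0.77, beside −0.39 for Btg2.

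Gtse1 was read beside 21 genes of G2 and mitosis, whose levels follow the share of dividing cells. All 21 had a positive log2 fold change, 10 rose by the test, none fell, and in 18 every OSKA + 4OHT library was higher. The shares of all tested genes were 59.3% with a positive log2 fold change, 3.52% called higher and 18.1% with every library higher. Ube2c, the E2 enzyme of the anaphase-promoting complex, rose from 56.4, 70.4 and 53.2 TPM to 188, 205 and 158 TPM (log2 fold change 1.61, adjusted p = 0.0069). Plk1, a mitotic kinase, rose by 1.42 (adjusted p = 0.0070) and Ccnb1, cyclin B1, by 1.37 (adjusted p = 0.017). With 1 library left out at a time, between 3 and 6 genes of the list were called higher, Ube2c and Plk1 in all 6 fits and Ccnb1 in 2. The list median was 1.01, and Gtse1 at 0.79 lay below 16 of the 21. Per library the ratio of Gtse1 to Mki67, the proliferation marker, was 0.42, 0.37 and 0.52 without 4OHT and 0.48, 0.50 and 0.45 with 4OHT, and these overlapped. That ratio too was chosen after its values were seen.

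**Figure D3:**
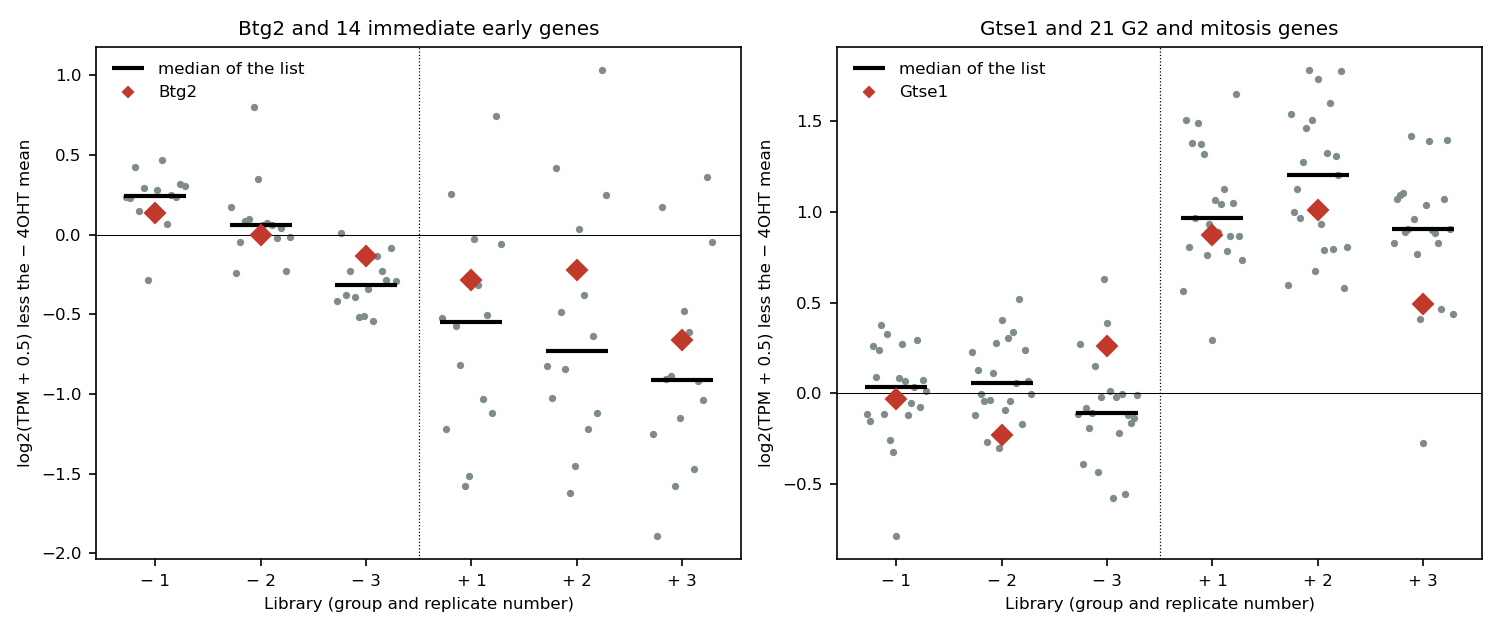
Level in each library on the log2(TPM + 0.5) scale less the mean of the OSKA − 4OHT libraries (vertical axis), for Btg2 with 14 immediate early genes on the left and Gtse1 with 21 genes of G2 and mitosis on the right, where grey points are list genes, bars are list medians and red diamonds are the member. Btg2 lies below 0 in all 3 OSKA + 4OHT libraries with most immediate early genes, and Gtse1 lies above 0 there with the mitotic genes.

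Gdf15 was read beside 9 genes of the ATF4 and CHOP stress response, which also induces it. Of the 8 tested, 1 was called, beside 3.52% of all tested genes called higher and 1.97% called lower: Slc7a11, the cystine transporter, rose from 6.48, 7.90 and 5.56 TPM to 24.9, 25.5 and 19.9 TPM (log2 fold change 1.75, SE 0.22, adjusted p = 0.011), a call that was lost without OSKA + 4OHT replicate 1 (adjusted p = 0.061) or replicate 2. Asns, asparagine synthetase, was at 69.9, 75.9 and 74.2 TPM without 4OHT and 46.7, 52.6 and 37.0 TPM with it, without a call (adjusted p = 0.070), but it was called lower under each of the 3 other scalings (adjusted p between 0.020 and 0.031) and is named for that reason. The list as a whole had a median of −0.05, with 4 genes above and 4 below 0, and Fgf21 was listed at 0 TPM in all 6 libraries.

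**Figure D4:**
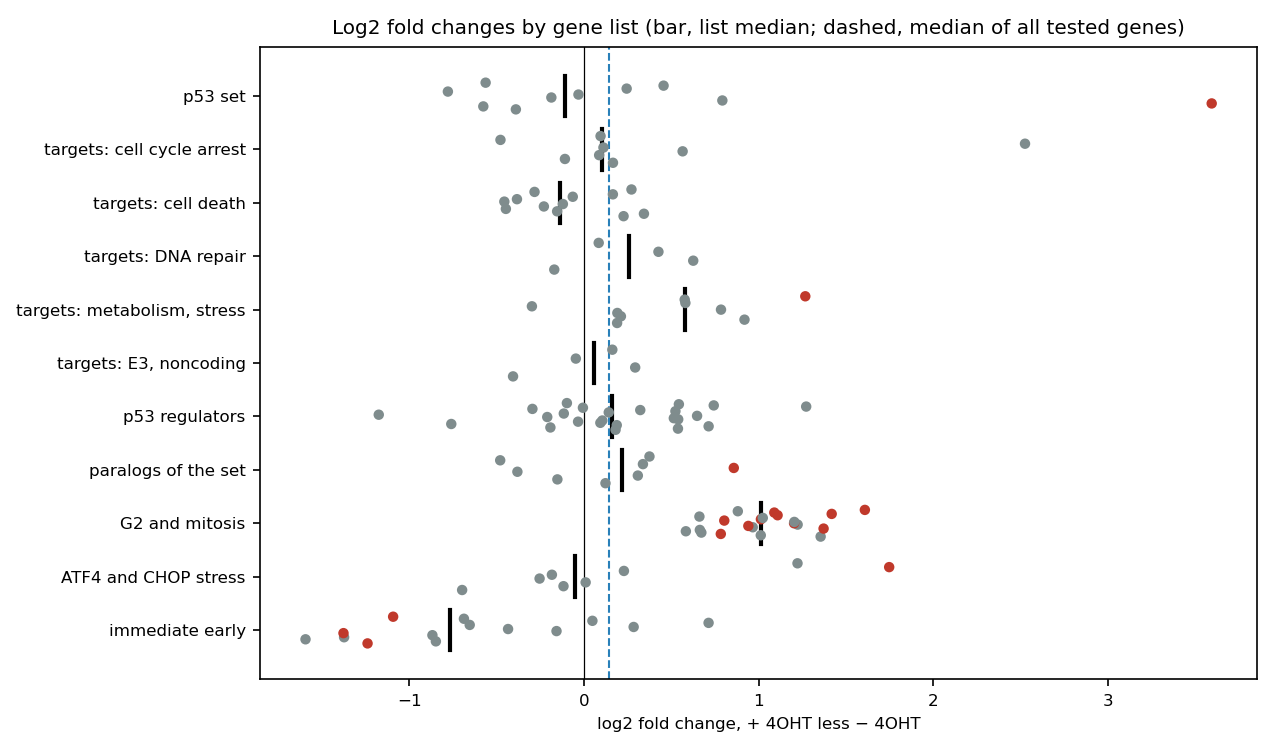
Log2 fold changes (horizontal axis, OSKA + 4OHT less OSKA − 4OHT) of the tested genes of 11 lists, with 1 point per gene, called genes in red, list medians as bars and the median of all tested genes as a dashed line at 0.14. The G2 and mitosis genes (median 1.01) and the immediate early genes (median −0.77) lie apart from the other lists, while the medians of the p53 set, the further targets by role and the regulators lie between −0.14 and 0.58.

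Marker lists of fibroblast, pluripotent and epithelial cells differed between the groups. The summed level of 7 fibroblast markers ran from 6259 to 8082 TPM without 4OHT and from 4641 to 6047 TPM with 4OHT. Much of it was Vim, at 3374 to 4553 TPM without 4OHT and 2075 to 3065 TPM with 4OHT. Col1a2 and Pdgfrb were called lower and Col3a1 higher (in 1, 5 and 6 of the 6 fits that left out 1 library). Of all tested genes, 1.97% were called lower and 3.52% higher, the shares to set beside this and the other marker lists. With median centring 4 of the 7 were called lower and 1 higher. Every OSKA + 4OHT library was lower for 4 of the 7 and higher for 2, Col3a1 and, without a call, Thy1. The 9 pluripotency markers summed to between 7.45 and 16.8 TPM without 4OHT, where 3 of them (Dppa5a, Utf1 and Lin28a) were listed at 0 in every library, and to between 64.1 and 72.2 TPM with 4OHT, with Nanog, Zfp42, Dppa5a and Tdgf1 called higher. Nanog, Zfp42 and Dppa5a met the limit of 1 TPM only through the OSKA + 4OHT libraries, so their calls add nothing to these sums. With 1 library left out, Tdgf1 was called in 3 of 6 fits and Nanog and Zfp42 in 0. Dppa5a was called in 6 of 6, a count that adds nothing for the same reason. The 5 epithelial markers summed to between 31.1 and 71.7 TPM and to between 150.3 and 166 TPM, with Cdh1, Epcam and Krt8 called higher (in 6, 0 and 1 of those 6 fits). In bulk RNA a smaller share of cells that carry a transcript and less of it per cell cannot be told apart, and the part of the cell mixture in the levels of Ccng1, Phlda3, Zmat3, Btg2, Gdf15 and Gtse1 was not tested. The summed level of the 6 macrophage markers (28.3 to 40.9 and 26.6 to 41.5 TPM) overlapped between the groups. Of the 6, 1 was lower in every OSKA + 4OHT library without a call, beside 10.0% of all tested genes. The 4 endothelial markers (21.4 to 27.9 and 28.1 to 37.6 TPM) were barely apart, through Tek alone, while Pecam1, Cdh5 and Kdr overlapped.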

How the data were processed

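RNA of 6 wells was measured by the authors with stranded polyA libraries and single-end reads, trimmed with Trim Galore and quantified with Salmon against the mouse transcriptome. Versions, the annotation release and the use of strand in counting are not given in the sources used here. The authors deposited TPM per Ensembl gene and library. Each library sums to 1000000, so the depth is unknown, and between 15814 and 18230 genes were above 0. The table also holds the log2 fold change, average level, F statistic and p-value of the authors' comparison, which were not used.

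Symbols and positions came from GENCODE M21 on GRCm38 (54097 genes matched). Where a symbol named 2 genes, the one with more transcripts was kept. Groups came from the labels. The OSKA + 4OHT group was compared with the OSKA − 4OHT group by limma-trend (limma 3.58.1, R 4.3.3) on log2(TPM + 0.5), without a block, for genes averaging 1 TPM or more, with Benjamini-Hochberg adjustment, and called at an adjusted p under 0.05. The 95% intervals are those of the fit. On data simulated for this comparison, with 15381 genes tested, 100 genes were changed by 1 and 100 by 2 on the log2 scale. Of these, 12% and 31% were recovered, with 3 false calls. In the data 845 genes were called, and the adjustment is stricter where fewer genes change, so recovery there may differ. A gene without a call is therefore not shown to be unchanged. Similar transcripts were searched with BLAST 2.17.0 (at least 95% identity over 50 bases): Ccng1, Phlda3, Gdf15, Trp53inp1, Btg2 and Gtse1 had none in other genes, Mdm2, Mdm4 and Zmat3 shared stretches of at most 143 bases, and Trp53 shared 353 bases with its pseudogene and stretches of at most 87 bases with other genes, 283 genes in all, some of them expressed, such as Senp1.

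The members and lists were chosen with earlier results of these data known. All members are named, then the called genes of each list where at most 6, otherwise the 3 largest rises and falls, and Cdkn1a, Bax and Cdkn2a throughout. Alternatives were other pseudocounts (0.1, 1 and 2), no filter or an average of 5 TPM or more, other scalings, other variance models, the replicate number as a block and leaving out each library.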

Additional observations from a re-analysis of the deposited data

How the results depend on the processing

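The direction of each member held in all alternatives run except for Mdm4, which was −0.03 with all libraries and ran from −0.28 to 0.34 when 1 was left out, above 0 without OSKA − 4OHT replicate 2 (0.22) or OSKA + 4OHT replicate 3. Of 169 alternative values for the 10 members, 160 kept direction and side of the threshold, 4 lost a call, 3 gained one and 2 turned. The losses were of Gdf15, without each OSKA + 4OHT library and, with adjusted p = 0.093, with the replicate block. The gains were of Ccng1, Phlda3 and Zmat3 with median centring. Gdf15, the 1 member called with all libraries, gave 16 of these values, 12 kept and 4 lost. It met the limit of 1 TPM only through the OSKA + 4OHT libraries, so its call adds nothing. The count of members called, 1, became 4 with median centring and 0 with an average of 5 TPM required, where Gdf15 was not tested, and ran from 0 to 1 when 1 library was left out. Further targets called, 1, became 2 with an average of 5 TPM required (Tigar and Ddit4) and ran from 0 to 1 without 1 library, where the 1 was Ddit4, without OSKA + 4OHT replicate 3. Called genes of the regulator, paralog, G2 and mitosis, ATF4 and CHOP, and immediate early lists, 15 without the marker lists (12 higher and 3 lower), ran from 3 to 9 when 1 library was left out, and the 845 called genes of the whole table from 175 (without OSKA + 4OHT replicate 1) to 465, with fewer samples in these fits. With scaling by a trimmed mean, quantiles and the median gene, those lists split into 10 higher and 7 lower, 10 and 6, and 8 and 9. The replicate numbers correlated by 0.0235, 0.0341 and 0.0837 across the groups, under the limit of 0.1, so they were not taken to pair the wells: 2 of the 3 OSKA + 4OHT libraries correlated best with their own number. With the replicate block, 47 genes were called, with 0 members, 0 further targets, 0 genes of those other lists and, among the marker lists, 1 (Dppa5a). Dppa5a met the limit of 1 TPM only through the OSKA + 4OHT libraries, so this call adds nothing. Depth, which is unknown, limits Gdf15 and other genes near 0 TPM.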
